A study of Mus musculus with 96 samples.

Results

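The genes described here are the Wnt ligands (Wnt), their frizzled receptors (Fzd), the R-spondin agonists (Rspo), and the secreted frizzled-related proteins (Sfrp) and dickkopf proteins (Dkk), followed through striatum and cerebral cortex of mice with a Huntington's disease mutation and a Pms1 mutation. They were taken by gene symbol from the deposited read-count table and kept where the count, summed over the 96 libraries, reached 100. Of 48795 genes listed, 41 carried such a name and 38 reached the minimum: 18 Wnt ligands, 10 frizzled receptors, 4 R-spondins, 4 Sfrp and 2 Dkk genes. The 3 that did not were Wnt3a with 71 counts in all, Dkk1 with 19 and Dkk4 with 9.

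Striatal and cortical RNA libraries were made from 48 mice on a C57BL/6 background, all 6 months old, with 8 mice (4 females and 4 males) in each of 6 genotypes. The genotypes are the heterozygous Q140 knock-in with Pms1-/- (written Q140 Pms1 null here), the heterozygous Q140 knock-in with Pms1+/- (Q140 Pms1 het), the heterozygous Q140 knock-in alone (Q140), Pms1-/- alone (Pms1 null), Pms1+/- alone (Pms1 het), and wild type (WT). Q140 mice carry an expanded CAG repeat in the mouse huntingtin gene Htt, and Pms1 encodes a mismatch-repair protein of the kind that acts on such repeats. Both alleles are carried in every cell, and the labels do not say what the Pms1 allele removes. The series text gives 16 animals per group, whereas the sample labels give 8, and the labels were followed.

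Wnt proteins are lipid-modified secreted ligands that bind frizzled receptors together with Lrp5 or Lrp6. In the canonical branch this stops the Axin, Apc and Gsk3 complex from degrading beta-catenin, which then acts with Tcf and Lef factors on target genes, while other branches act on cell polarity and calcium. R-spondins strengthen the signal by keeping frizzled receptors at the cell surface, Sfrp proteins bind Wnt ligands outside the cell, and most Dkk proteins block Lrp5 and Lrp6. In the adult brain the family is known for roles in synapse formation, neurogenesis, and the blood vessel wall.

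Library totals ran between 27993751 and 56364535 counts. Levels are given as CPM, counts brought to a common library size after scaling of the libraries within each tissue, for 8 mice per group as the lowest, the median and the highest animal. A member was called changed at an adjusted p below 0.05 in edgeR's quasi-likelihood test with Benjamini-Hochberg adjustment over all genes tested, and fold changes are log2 values with their standard error (SE). The Pms1 transcript itself averaged 4.03 ± 0.445 CPM in Pms1 null and 5.43 ± 0.343 CPM in WT striatum (SD, n = 8 each), a log2 difference of -0.43 (SE 0.08, adjusted p = 6.98e-04). In cortex Pms1 averaged 3.53 ± 0.393 CPM in Pms1 null and 3.78 ± 0.399 CPM in WT mice (SD, n = 8 each), which did not pass the test (-0.10, SE 0.08, adjusted p = 0.467). Pms1 reads thus fell in part in Pms1 null striatum and did not pass the test in Pms1 null cortex. All 16 animals of both Pms1 null groups carry late animal codes (a first number of 16 or more), against 1 of 8 Q140 Pms1 het, 3 of 8 Q140, 0 of 8 Pms1 het and 2 of 8 WT mice, so Pms1 null and late code overlap almost fully. What the code stands for is not stated.

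The comparison of Q140 with WT striatum asks which of these genes follow the Huntington's disease mutation in the tissue it affects most. In Q140 striatum 6 of the 33 members tested were lower than in WT and 0 were higher, led by the ligand genes Wnt8b (4.01-fold lower) and Wnt4 (2.58-fold lower), Dkk2 (2.3-fold lower) and Rspo1 (1.57-fold lower). Wnt7a and Fzd3 were lower by smaller amounts. Over all 18890 genes tested, 31.3% were called, 15.4% of them as lower and 15.9% as higher, so the members' share in either direction together was below that of the whole table and their share of lower calls was near it. The median member stood at a log2 difference of -0.03 and the median gene at 0.01. By role, 3 of 14 Wnt ligands, 1 of 10 frizzled receptors, 1 of 3 R-spondins, 1 of 2 Dkk genes and 0 of 4 Sfrp genes were lower. The other 5 members had too few counts in striatum to be tested: Rspo2, Wnt1, Wnt6, Wnt8a and Wnt9b.

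Wnt8b, a ligand gene best known from the developing forebrain midline, had 0.542, 0.672 and 1.92 CPM (lowest, median and highest) in Q140 striatum, against 1.76, 3.08 and 6.05 CPM in WT striatum. Only the highest Q140 animal reached the lowest WT animal. The log2 difference was -2.0 (SE 0.30, adjusted p = 1.08e-06), and it rests on 24 to 71 counts per Q140 library and 55 to 280 per WT library.

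Wnt4, a ligand that in other tissues acts mainly through non-canonical branches, had 0.977, 1.26 and 1.86 CPM in Q140 striatum, against 2.53, 3.06 and 4.08 CPM in WT striatum. Every Q140 animal was below every WT animal. Its log2 difference was -1.37 (SE 0.16, adjusted p = 8.09e-10).

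Dkk2, which binds Lrp5 and Lrp6 and can act as an inhibitor or a weak activator, had 0.299, 0.692 and 0.998 CPM in Q140 striatum, against 0.717, 1.56 and 2.95 CPM in WT striatum. The ranges overlapped at the lowest WT animal. Its log2 difference was -1.20 (SE 0.19, adjusted p = 1.92e-06), from 12 to 52 counts per Q140 library and 32 to 101 per WT library.

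Rspo1, an R-spondin that binds Lgr receptors, had 4.65, 5.96 and 7.99 CPM in Q140 striatum, against 7.27, 9.45 and 11.2 CPM in WT striatum. Only the highest Q140 value lay inside the WT range. Its log2 difference was -0.65 (SE 0.10, adjusted p = 7.32e-07).

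Wnt7a, a ligand with known roles at synapses and in brain vessels, had 10.7, 12.6 and 14.1 CPM in Q140 striatum, against 14.1, 15.5 and 17.4 CPM in WT striatum, and the ranges met at their ends (log2 difference -0.35, SE 0.08, adjusted p = 0.000585). Fzd3, the frizzled receptor needed for axon tract growth, had 36.4, 38.7 and 42.6 CPM in Q140 striatum, against 40.6, 42.0 and 49.3 CPM in WT striatum. The Fzd3 ranges overlapped over several animals, and its log2 difference was small (-0.14, SE 0.05, adjusted p = 0.0215). The Fzd3 call did not hold without the scaling of the libraries (-0.07, adjusted p = 0.262), and it was also lost without either of 2 single WT animals (coded 8-4 and 11-4).

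**Figure D1:**
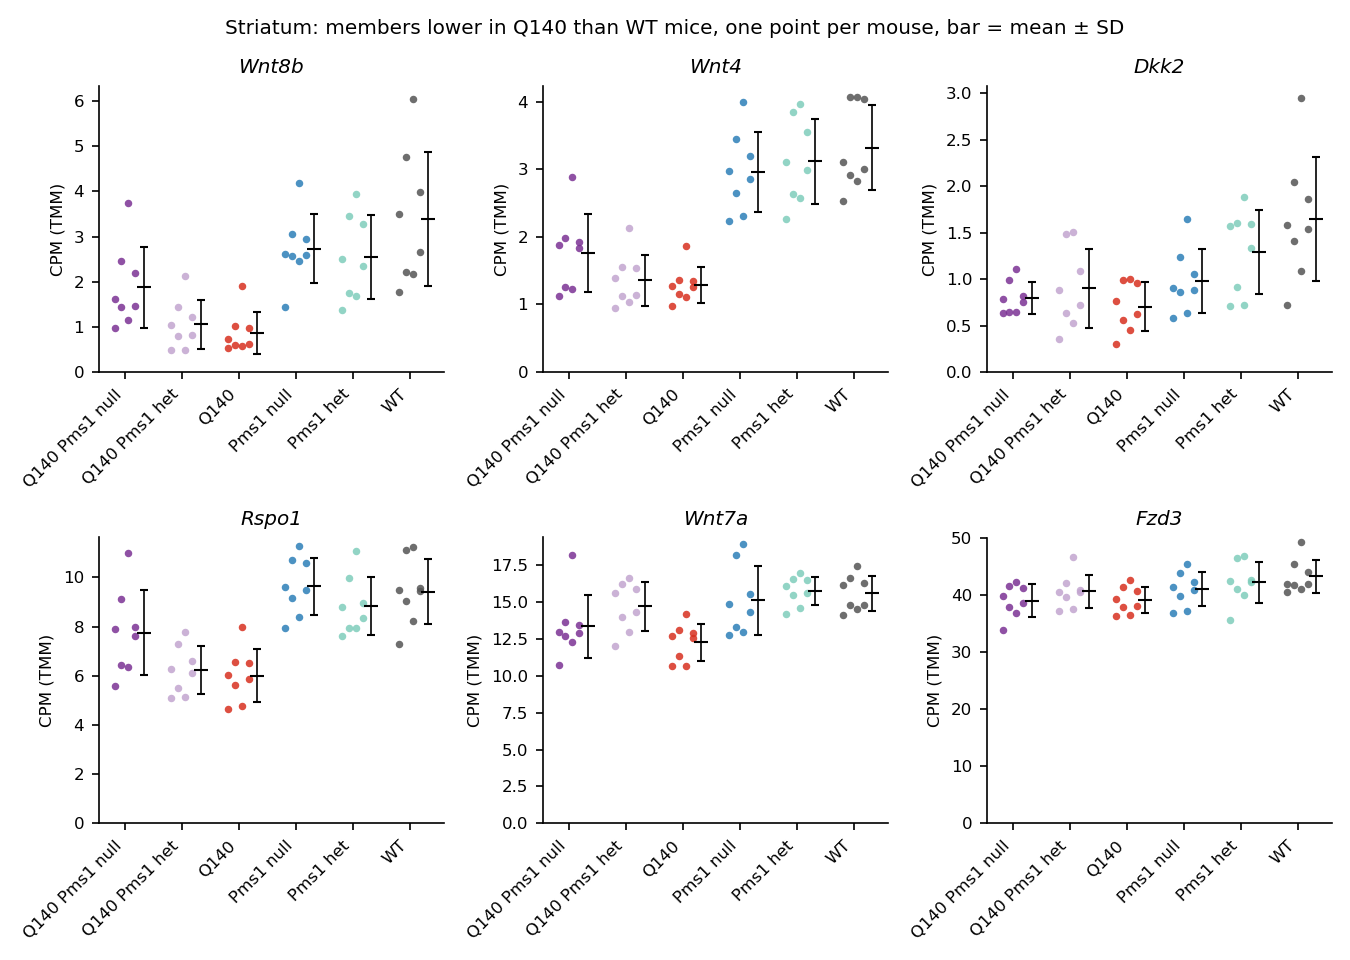
Striatal CPM of the 6 members called lower in Q140 than in WT mice, with 1 point per mouse, 8 mice in each of the 6 genotypes, and bars for the mean ± SD. Wnt4 is the panel in which all Q140 points (up to 1.86 CPM) lie below all WT points (from 2.53 CPM), and in all panels but Fzd3 the Q140 Pms1 null mean lies between those of Q140 and WT.

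The 27 members that did not pass lay between -0.38 (Rspo4) and 0.67 (Wnt11) on the log2 scale. Among them the 11 other ligands ran between -0.36 (Wnt5b) and 0.67, the 9 other frizzled genes between -0.26 (Fzd10) and 0.16 (Fzd1), and the 4 Sfrp genes between -0.29 (Sfrp2) and 0.40 (Sfrp5). Without scaling of the libraries the split was 2 higher and 5 lower, with Fzd1 (0.23) and Wnt5a (0.27) higher. Fzd1 was also called higher with limma on log2(FPKM + 0.1) (0.22, adjusted p = 0.013) and on log2(FPKM + 1) (0.13, adjusted p = 0.0142). The same held for Fzd1 in females only and without the WT animal 14-4. Wnt5a was also called higher with limma on log2(FPKM + 0.1), with early codes only and without the WT animal 27-2. Rspo3 and Wnt5b were called lower in some other settings. At an unadjusted p below 0.05, 8 of the 33 members differed.

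The RNA of cell type marker genes also differed between these groups. The summed CPM of 10 marker genes of medium spiny neurons, the principal striatal cells, ran between 7912 and 9095 in Q140 striatum and between 12588 and 14236 in WT striatum, and 9 of the 10 were called lower and 1 higher. In bulk tissue, fewer cells of a type and less RNA per cell cannot be told apart. The sum of 9 markers of cortical glutamatergic neurons was 127.9 to 141.0 CPM in Q140 striatum and 117.9 to 130.1 CPM in WT striatum, with 3 of 9 called higher and 0 lower. Lists for regions around the striatum were summed too. The 7 dentate and hippocampal markers gave 724.8 to 837.3 CPM in Q140 and 749.3 to 822.1 CPM in WT striatum. The 6 septal markers gave 139.3 to 165.6 CPM in Q140 and 153.3 to 172.2 CPM in WT. The 7 thalamic markers gave 51.8 to 61.7 CPM in Q140 and 54.2 to 73.1 CPM in WT, with 3 of the 6 tested called lower. Of these 3, Lef1 is also in the pathway list read below. In WT mice Calb1 averaged 338 CPM in striatum and 142 CPM in cortex, Zbtb20 231 and 67.4 CPM, and Synpo2 37.7 and 4.97 CPM. Such genes make up much of these sums, so the part that comes from neighbouring tissue cannot be told. No listed marker of these groups was at 0 in any striatal group, and the part of other cells in the members' differences was not tested. In the list of 7 microglial markers, 5 were lower in Q140 than in WT striatum and 0 were higher, and in the list of 10 endothelial and mural markers 3 were lower and 0 higher.

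Of the members called lower in Q140 than in WT striatum, RefSeq's table (build GRCm38.p6) covers the promoters of 5, which are shown here. Each runs 5′ to 3′ on the gene's own strand and ends before the first annotated transcript start. Wnt8b is shown for chr19:44493222-44493471 (plus strand), Wnt4 for chr4:137277385-137277488 (plus strand), Dkk2 for chr3:132085042-132085291 (plus strand), Rspo1 for chr4:124986180-124986429 (plus strand) and Wnt7a for chr6:91411364-91411603 (minus strand). Capitals mark a match, on either strand, to the GC box GGGCGG, to the Egr motif GCGNGGGCG or to TATAAA, and in Wnt7a the Egr match next to the start overlaps GC boxes.
Wnt8b: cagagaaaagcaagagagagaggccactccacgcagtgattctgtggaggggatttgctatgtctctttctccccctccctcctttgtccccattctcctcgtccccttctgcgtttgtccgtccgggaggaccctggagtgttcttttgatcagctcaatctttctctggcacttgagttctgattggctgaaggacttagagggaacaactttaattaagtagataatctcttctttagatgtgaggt
Wnt4: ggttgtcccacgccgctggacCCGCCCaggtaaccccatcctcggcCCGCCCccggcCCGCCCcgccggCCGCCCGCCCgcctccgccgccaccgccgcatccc
Dkk2: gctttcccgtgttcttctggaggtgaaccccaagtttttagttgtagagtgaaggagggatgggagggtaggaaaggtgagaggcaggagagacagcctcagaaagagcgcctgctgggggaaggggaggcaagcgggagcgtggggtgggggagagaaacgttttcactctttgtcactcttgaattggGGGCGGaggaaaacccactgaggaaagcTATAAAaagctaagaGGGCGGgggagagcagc
Rspo1: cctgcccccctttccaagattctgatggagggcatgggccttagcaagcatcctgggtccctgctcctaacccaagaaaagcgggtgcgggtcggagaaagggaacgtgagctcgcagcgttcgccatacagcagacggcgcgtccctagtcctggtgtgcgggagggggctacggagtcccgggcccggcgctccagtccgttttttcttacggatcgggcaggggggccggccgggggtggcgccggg
Wnt7a: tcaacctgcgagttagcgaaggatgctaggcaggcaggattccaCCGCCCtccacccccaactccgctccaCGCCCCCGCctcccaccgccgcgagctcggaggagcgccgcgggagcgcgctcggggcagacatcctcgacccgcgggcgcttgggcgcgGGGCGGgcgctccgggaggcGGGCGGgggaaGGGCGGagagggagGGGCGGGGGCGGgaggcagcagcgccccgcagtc
These 5 promoters have little in common. Over the 300-base window that ends 50 bases after the start, the GC content was 48.3% for Wnt8b, 57.7% for Dkk2, 69.0% for Rspo1, 76.0% for Wnt7a and 84.3% for Wnt4, against a median of 52.7% over all 32851 promoters in the table. In these windows Wnt8b and Rspo1 held no match to any of the motifs searched, Wnt4 held 8 GC boxes (5 of them in the stretch shown), Dkk2 held a TATAAA at positions -32 to -27 and 2 GC boxes, and Wnt7a held 2 Egr matches and 6 GC boxes. Of the 25 members with a promoter in the table, 7 held the Egr motif (5.55% of all promoters), 19 a GC box (35.7%), 3 the TCF/LEF motif CTTTGA (16.0%), 3 TATAAA (13.6%) and 0 the cyclic AMP response element TGACGTCA (1.79%). A member counted here if any of its promoters held the motif, while the percentages are over single promoters, so the counts and percentages are unlike measures. The GC content of the 25 members was not set against that of all promoters. A match is a run of letters, not a measured site.

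Loss of Pms1 on the Q140 background was compared next, in Q140 Pms1 null against Q140 striatum. Wnt8b and Rspo1 were higher in Q140 Pms1 null mice, which makes 2 of 33 members called, both higher, where 7.1% of all genes were called, 5.07% as higher and 2.03% as lower. Wnt8b had 0.965, 1.53 and 3.74 CPM in Q140 Pms1 null striatum, against 0.542, 0.672 and 1.92 CPM in Q140 striatum, with a log2 difference of 1.12 (SE 0.32, adjusted p = 0.0234). Rspo1 had 5.59, 7.76 and 11.0 CPM in Q140 Pms1 null striatum, against 4.65, 5.96 and 7.99 CPM in Q140 striatum (0.36, SE 0.10, adjusted p = 0.0185). In both genes the groups overlapped, and the medians were higher in Q140 Pms1 null mice. Without scaling of the libraries the split was 2 higher and 1 lower. Both calls were lost when a term for late animal codes was added (Wnt8b 0.78, adjusted p = 0.246, and Rspo1 0.33, adjusted p = 0.108). With the first code number as a random block, Rspo1 was called (0.33, adjusted p = 0.0449) and Wnt8b was not (0.97, adjusted p = 0.0959). Without the Q140 Pms1 null animal coded 43-5 the adjusted p was 0.0807 for Wnt8b and 0.0672 for Rspo1, and without the Q140 animal coded 7-1 it was 0.0533 for Wnt8b and 0.0603 for Rspo1. Wnt8b was also lost without the Q140 animal 7-3 (adjusted p = 0.0561), the Q140 animal 15-1 (0.0504) or the Q140 Pms1 null animal 21-4 (0.0603).

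Wnt4 had 1.12, 1.86 and 2.89 CPM in Q140 Pms1 null striatum, against 0.977, 1.26 and 1.86 CPM in Q140 striatum. It did not pass with all animals (0.45, SE 0.17, adjusted p = 0.0985). It was called higher without the Q140 animal 8-2 (0.54, adjusted p = 0.0359) or without the Q140 Pms1 null animal 18-1 (0.52, adjusted p = 0.0429). Dkk2 had 0.638, 0.769 and 1.11 CPM in Q140 Pms1 null and 0.299, 0.692 and 0.998 CPM in Q140 striatum, which also did not pass (0.21, SE 0.21, adjusted p = 0.652). The medium spiny neuron marker sum was 9350 to 11238 CPM in Q140 Pms1 null and 7912 to 9095 CPM in Q140 striatum, so it differed between these groups too, and its part in the members' values was not tested. Q140 Pms1 null mice still differed from WT mice: 7 of 33 members were lower and 0 higher, where 20% of all genes were called, 10.1% higher and 9.94% lower. They were Wnt4 (-0.92, SE 0.15), Dkk2 (-1.0, SE 0.19), Wnt8b (-0.89, SE 0.28), Rspo3 (-0.35), Rspo1 (-0.29, SE 0.10), Wnt7a (-0.23, SE 0.08) and Fzd3 (-0.15, SE 0.05). With the late-code term 4 members were called in that comparison, 1 higher and 3 lower, and without scaling of the libraries the split was 1 higher and 4 lower.

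**Figure D2:**
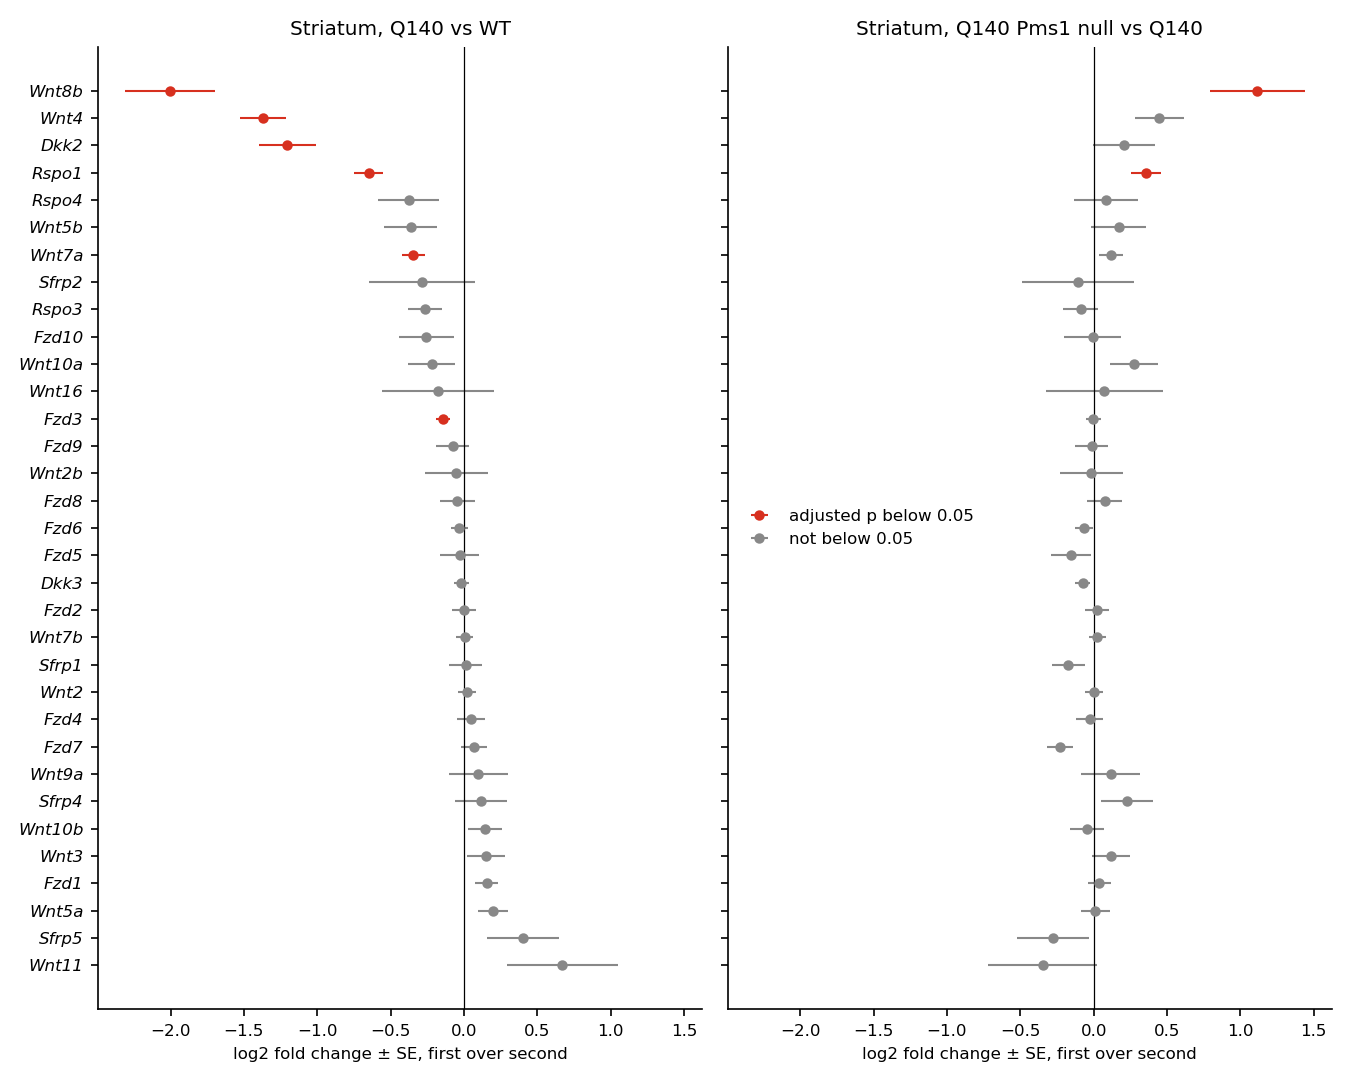
Log2 fold changes (points) with their SE (lines) of the 33 members tested in striatum, on the left for Q140 over WT and on the right for Q140 Pms1 null over Q140. Red points are called at an adjusted p below 0.05: on the left 6, all below 0, and on the right Wnt8b (1.12) and Rspo1 (0.36). Both panels use the same Q140 animals, so opposite signs between them are partly built in.

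A single missing copy of Pms1 gave no call. In Q140 Pms1 het against Q140 striatum 0 of 33 members and 0% of 18890 genes passed, while 3 members and 1026 genes had an unadjusted p below 0.05. Those 3 were Wnt7a (0.26, SE 0.08), Fzd4 (-0.23, SE 0.09) and Fzd7 (-0.19, SE 0.09). For Wnt8b the log2 difference was 0.30 with a 95% interval of -0.37 to 0.98, and its median was 0.936 CPM in Q140 Pms1 het and 0.672 CPM in Q140 striatum. In Pms1 het against WT striatum 0 of 33 members and 0% of genes passed (2 members and 1882 genes at an unadjusted p below 0.05).

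The Q140 effect could be read again in animals that share a Pms1 genotype. Against Pms1 het striatum, 7 of 33 members were called in Q140 Pms1 het striatum (24.9% of all genes, 12.1% lower and 12.8% higher), 4 lower and 3 higher. Wnt4 had 0.954, 1.26 and 2.12 CPM in Q140 Pms1 het striatum, against 2.26, 3.05 and 3.97 CPM in Pms1 het striatum, again without overlap (-1.20, SE 0.16, adjusted p = 7.94e-08). Wnt8b (-1.28, SE 0.31, adjusted p = 0.00151), Rspo1 (-0.51, SE 0.10, adjusted p = 0.000127) and Dkk2 (-0.53, SE 0.20, adjusted p = 0.042) were the other 3 lower ones, and their ranges overlapped. Wnt7a, with 12.0, 15.0 and 16.6 CPM in Q140 Pms1 het striatum, did not pass there (-0.10, SE 0.08, adjusted p = 0.39). The 3 higher members were Fzd9 (0.46, SE 0.12, adjusted p = 0.00242), Wnt3 (0.38, SE 0.14, adjusted p = 0.0342) and Wnt2 (0.20, adjusted p = 0.0133). Fzd9, a frizzled receptor deleted in Williams syndrome in humans, had 1.47, 1.86 and 2.74 CPM in Q140 Pms1 het and 1.22, 1.39 and 1.67 CPM in Pms1 het striatum, while WT striatum had 1.35, 2.00 and 2.29 CPM, so the low group here was Pms1 het.

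Against Pms1 null striatum, 6 of 33 members were called in Q140 Pms1 null striatum (11.1% of all genes, 5.47% lower and 5.59% higher), 5 lower and 1 higher. Wnt4 had 1.12, 1.86 and 2.89 CPM in Q140 Pms1 null and 2.23, 2.91 and 4.00 CPM in Pms1 null striatum (-0.76, SE 0.16, adjusted p = 0.000638), and Rspo1 differed by -0.33 (SE 0.10, adjusted p = 0.0222). Wnt8b (-0.56, SE 0.29, adjusted p = 0.223) and Dkk2 (-0.24, SE 0.21, adjusted p = 0.509) did not pass in this pair. Rspo3, an R-spondin of vessels and neurons, had 1.25, 1.84 and 2.59 CPM in Q140 Pms1 null and 1.65, 2.33 and 3.41 CPM in Pms1 null striatum (-0.36, SE 0.12, adjusted p = 0.0405). Fzd7 (-0.31, SE 0.09, adjusted p = 0.0178) and Fzd4, the receptor for norrin in vessels (-0.30, SE 0.09, adjusted p = 0.0291), were lower as well, and Wnt2 was higher (0.24, SE 0.06, adjusted p = 0.00715). The groups overlapped in each of these 4 genes, and none of the 4 was called in Q140 against WT striatum. Between Pms1 null and WT striatum, Fzd4 was called higher and Wnt2 lower, so the Pms1 null group itself stood apart from WT for them.

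Whether the Q140 effect itself differed with Pms1 genotype was tested as an interaction, the Q140 effect in Pms1 null mice minus that in Pms1 wild-type mice. It was above 0 for 2 of 33 members, Wnt8b (1.44, SE 0.42, adjusted p = 0.0333) and Dkk2 (0.96, SE 0.28, adjusted p = 0.0339), where 5.05% of all genes were called, 3.37% above 0. For Wnt8b the Q140 effect was -0.56 in Pms1 null mice and -2.0 in Pms1 wild-type mice, and for Dkk2 it was -0.24 in Pms1 null mice and -1.20 in Pms1 wild-type mice. The positions of the groups differed between these genes: for Dkk2 the Pms1 null animals without Q140 were already low (median 0.894 CPM, against 1.56 CPM in WT), while for Wnt8b the medians were 2.61 CPM in Pms1 null and 3.08 CPM in WT mice. For Wnt4 (0.61, SE 0.22, adjusted p = 0.0952) and Rspo1 (0.32, SE 0.14, adjusted p = 0.18) the interaction did not pass. The Wnt8b interaction was not called without the filter on low counts (adjusted p = 0.0626). With the first code number as a random block Wnt8b was not called either (1.29, adjusted p = 0.0841), while Dkk2 was (1.0, adjusted p = 0.029). Without scaling of the libraries 2 members were above 0 and 1, Fzd7, below (-0.43, adjusted p = 0.0332). Fzd7 was also called below 0 with DESeq2 (-0.37, adjusted p = 0.045). Limma called it below 0 on log2(FPKM + 0.1) (-0.39, adjusted p = 0.0478) and on log2(FPKM + 1) (-0.25, adjusted p = 0.0456). With Pms1 het in place of Pms1 null, the interaction was called for 0 members (4 of them and 1619 genes had an unadjusted p below 0.05). The Q140 effect in females and males did not differ for any member at an adjusted p below 0.05, with 0 of all genes called, and 4 members and 1221 genes had an unadjusted p below 0.05. Those 4 were Dkk3, Fzd5, Sfrp1 and Wnt8b, and for Wnt8b the Q140 effect was -2.73 (SE 0.44) in females and -1.37 (SE 0.41) in males.

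Pms1 null mice without the Q140 allele were compared with WT mice in each tissue. In striatum 5 of 33 members changed, 2 higher and 3 lower (7.91% of all genes called, 4.01% higher and 3.9% lower), and in cortex 3 of 33 members were lower and 0 higher (9.58% of genes called, 4.26% lower). Fzd10, a low-level frizzled receptor, was called lower in both tissues. In striatum it had 0.506, 0.746 and 1.18 CPM in Pms1 null, against 0.961, 1.18 and 1.68 CPM in WT mice (-0.72, SE 0.20, adjusted p = 0.018). In cortex Fzd10 had 1.07, 1.15 and 1.61 CPM in Pms1 null, against 1.30, 1.74 and 2.44 CPM in WT mice (-0.53, SE 0.16, adjusted p = 0.0252). Both pairs of ranges overlapped, and both tissues come from the same animals.

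Dkk2 had 0.581, 0.894 and 1.65 CPM in Pms1 null and 0.717, 1.56 and 2.95 CPM in WT striatum (-0.75, SE 0.19, adjusted p = 0.00979). Wnt2, a ligand linked to canonical signalling in vessels, had 9.35, 11.8 and 13.1 CPM in Pms1 null and 11.0, 14.0 and 15.1 CPM in WT striatum (-0.21, SE 0.06, adjusted p = 0.0231). The 2 higher members were frizzled receptors: Fzd1 with 5.72, 6.4 and 7.75 CPM in Pms1 null and 4.41, 5.09 and 6.38 CPM in WT striatum (0.31, SE 0.08, adjusted p = 0.0108), and Fzd4 with 15.1, 17.5 and 24.2 CPM in Pms1 null and 12.6, 14.4 and 17.9 CPM in WT striatum (0.32, SE 0.09, adjusted p = 0.0265). All 4 of these genes overlapped between the groups.

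In cortex Wnt7a had 5.38, 6.86 and 9.22 CPM in Pms1 null, against 7.27, 9.10 and 10.0 CPM in WT mice (-0.33, SE 0.09, adjusted p = 0.0214). Wnt10a, a canonical ligand known from teeth and hair, had 9.74, 12.6 and 13.3 CPM in Pms1 null, against 13.1, 14.2 and 16.9 CPM in WT mice (-0.23, SE 0.06, adjusted p = 0.0141). Only the top of the Pms1 null range reached the WT animals for Wnt10a. Cell type markers moved in the same libraries. In cortex the summed CPM of 10 endothelial and mural markers was 316.7 to 381.2 in Pms1 null and 348.2 to 415.4 in WT mice, with 3 of 10 called lower and 0 higher, and that of 9 meningeal fibroblast markers was 37.9 to 69.6 in Pms1 null and 52.3 to 83.1 in WT mice, with 1 of 9 lower and 0 higher. Choroid plexus markers (8 genes) reached 609.7 CPM in 1 Pms1 null library, where the group's median was 3.70 CPM and WT libraries had 2.40 to 7.22 CPM. None of these markers was at 0 in either group, and their part in the members' values was not tested. In Q140 Pms1 null cortex Wnt10a was the 1 of 33 members called against WT (7.66% of genes, 3.48% lower), with 10.3, 12.5 and 15.1 CPM in Q140 Pms1 null mice (-0.21, SE 0.06, adjusted p = 0.0291). Wnt10a lies 21.5 Mb from Pms1 on chromosome 1, and Wnt6, Fzd5 and Fzd7 lie on the same chromosome at 21.5, 11.4 and 6.19 Mb, so alleles carried along with the Pms1 mutation could differ there, which was not tested. With a term for late codes 1 member stayed called in striatum (Fzd1) and 0 in cortex, and Pms1 null and late codes overlap so far that their effects cannot be told apart. In that fit the striatal values were -0.60 for Dkk2 (adjusted p = 0.171), -0.58 for Fzd10 (0.191), -0.25 for Wnt2 (0.0594) and 0.36 for Fzd4 (0.0878), and the cortical values were -0.41 for Fzd10 (0.265), -0.29 for Wnt7a (0.17) and -0.17 for Wnt10a (0.229). With the first code number as a random block, Wnt2 (adjusted p = 0.0555) and Fzd4 (0.0561) in striatum and Fzd10 in cortex (0.0773) were no longer called, and the other 5 calls were.

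**Figure D3:**
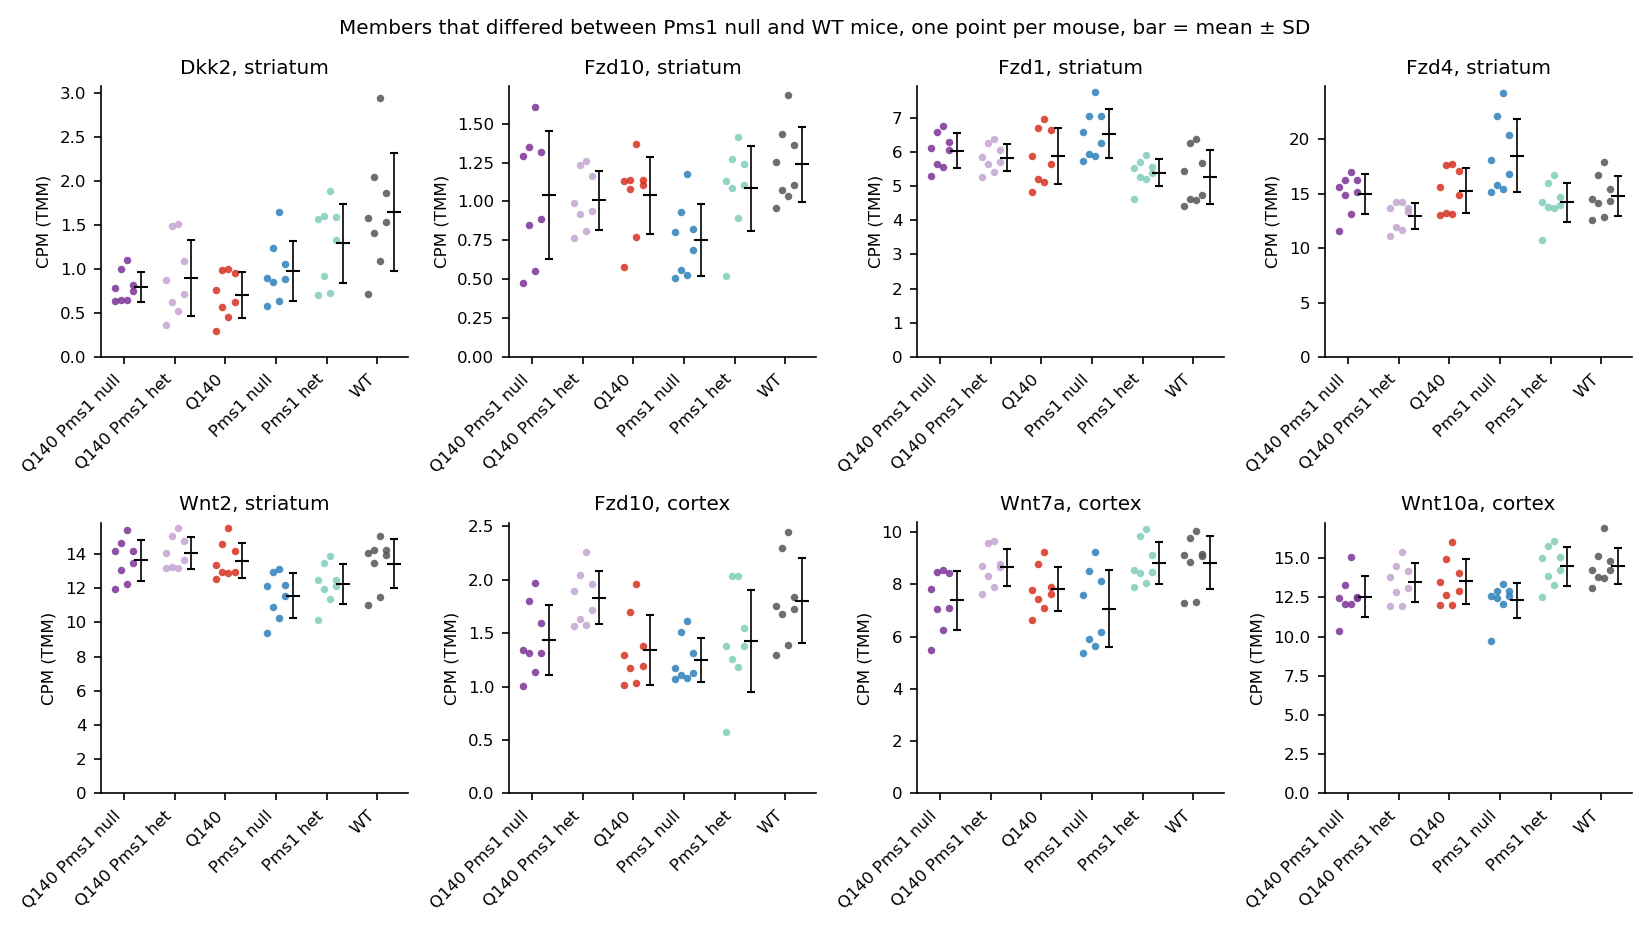
CPM per mouse of the members called in Pms1 null against WT mice, 5 in striatum and 3 in cortex, with 8 mice in each of the 6 genotypes and bars for the mean ± SD. In the Fzd1 and Fzd4 panels the Pms1 null mean lies above the WT mean and elsewhere it is lower, and the points of both groups overlap in every panel.

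Cortex gave almost no Q140 effect. In Q140 against WT cortex 0 of 33 members passed, where 0.0428% of genes (8 of 18711) were called, and 2 members and 1369 genes had an unadjusted p below 0.05. Those 2 were Wnt3 (0.42, SE 0.16) and Fzd10 (-0.43, SE 0.16). Wnt4 had 21.2, 25.7 and 31.2 CPM in Q140 cortex and 21.7, 26.3 and 30.2 CPM in WT cortex (-0.06, SE 0.07), and Rspo1 had 26.7, 29.6 and 32.1 CPM in Q140 cortex and 22.2, 29.4 and 34.8 CPM in WT cortex (0.00, SE 0.08). The groups covered each other for both genes. Tested as a difference between tissues, striatal minus cortical Q140 effect, 3 members were below 0 (13.3% of genes called, 8.32% below 0): Wnt4 (-1.33, SE 0.16, adjusted p = 3.79e-10), Dkk2 (-1.31, SE 0.29, adjusted p = 0.000384) and Rspo1 (-0.67, SE 0.13, adjusted p = 6.88e-05). With the animal as a replicate block, which uses that both tissues came from the same mouse, 5 members were called, the others being Rspo4 (-0.97, adjusted p = 0.0487) and Wnt9b (-1.89, adjusted p = 0.0427). Both are low genes, with 899 counts for Rspo4 and 404 for Wnt9b over all 96 libraries. Rspo4 had too few counts to be tested in cortex alone, and Wnt9b in striatum alone. Wnt8b was in this test too and was not called. It had 0 to 2 counts per library in Q140 and in WT cortex, so its cortical Q140 effect is poorly measured and the test decides little for it. In the remaining cortical comparisons, Q140 Pms1 het or Q140 Pms1 null against Q140, Pms1 het against WT, Q140 Pms1 het against Pms1 het and Q140 Pms1 null against Pms1 null, 0 members were called, where 0% of genes were called in Q140 Pms1 het against Q140 and in Pms1 het against WT, 0.0107% in Q140 Pms1 null against Q140, 0.112% in Q140 Pms1 het against Pms1 het and 0.0428% in Q140 Pms1 null against Pms1 null, and both cortical interactions of Q140 with Pms1 gave 0 calls among members and genes (0%). At an unadjusted p below 0.05, between 2 and 6 members differed in each of these comparisons. DESeq2 and limma on log2 FPKM also called 0 members in each of them, in Q140 against WT cortex and in both striatal comparisons of Pms1 het with its Pms1 wild-type counterpart.

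WT mice show how these genes divide between striatum and cortex. Of 36 members that could be tested across the tissues, 30 differed, 10 higher and 20 lower in striatum, where 74.5% of all genes differed (37.8% higher and 36.7% lower). Among the ligands 4 were higher and 9 lower, among the frizzled receptors 3 higher and 5 lower, among the R-spondins 1 higher and 3 lower, among the Sfrp genes 1 higher and 2 lower, and among the Dkk genes 1 each. The 6 that did not pass were Wnt9b, Wnt10b, Wnt11, Fzd6, Fzd7 and Sfrp1. A replicate block by animal left these counts as they were.

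Several ligand and agonist genes had most of their reads in cortex. Wnt9a had 0.354, 0.586 and 0.739 CPM in WT striatum, against 25.7, 28.2 and 32.6 CPM in WT cortex, which is 48.8-fold lower in striatum (log2 -5.61, SE 0.12, adjusted p = 7.80e-63). Wnt10a had 0.499, 0.707 and 1.06 CPM in WT striatum, against 13.1, 14.2 and 16.9 CPM in WT cortex (-4.30, SE 0.11). Neither gene came near an overlap between the tissues. Wnt6 had 0.032, 0.0812 and 0.282 CPM in WT striatum, against 0.893, 1.21 and 1.78 CPM in WT cortex (-3.52, SE 0.36). Rspo2 had 1 to 7 counts in each WT striatal library and 4.97, 8.20 and 10.9 CPM in WT cortex. For these genes too, all striatal values lay below all cortical ones.

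Of the 6 members lower in Q140 than in WT striatum, Wnt4 and Rspo1 were lower in WT striatum than in WT cortex, and Wnt8b, Dkk2, Wnt7a and Fzd3 were higher. Wnt4 had 2.53, 3.06 and 4.08 CPM in WT striatum and 21.7, 26.3 and 30.2 CPM in WT cortex (-2.99, SE 0.11), and Rspo1 was lower in striatum by a log2 difference of -1.62 (SE 0.10). Wnt9a (0.10, SE 0.20) and Wnt10a (-0.22, SE 0.16), with the steeper cortical lean, did not pass between Q140 and WT striatum. The part of cortical tissue in any of these values was not tested. Wnt2b (-3.28), Rspo3 (-2.51), Sfrp4 (-2.07), Sfrp2 (-1.95), Dkk3 (-1.88) and Fzd1 (-1.60) were lower in striatum too.

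Wnt8b ran the other way and was close to absent from cortex: WT striatum gave 55 to 280 counts per library, while 6 of 8 WT cortical libraries had 0 counts and the highest had 2. Dkk2 was also higher in striatum (1.64, SE 0.21). Fzd5, a receptor of canonical ligands, had 4.92, 8.03 and 10.8 CPM in WT striatum, against 0.954, 1.75 and 2.10 CPM in WT cortex (2.33, SE 0.14), and Wnt2 had 11.0, 14.0 and 15.1 CPM in WT striatum, against 1.84, 2.18 and 3.58 CPM in WT cortex (2.33, SE 0.09). The tissues did not overlap for either gene. Wnt3 (1.1), Wnt7a (0.80), Sfrp5 (0.75), Fzd2 (0.55) and Fzd3 (0.38) were higher in striatum by less, and Rspo4 was higher at low levels, with 0.286, 0.409 and 0.541 CPM in WT striatum, against 0, 0.128 and 0.195 CPM in WT cortex (1.91, SE 0.29).

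Levels can be set between genes only per transcript length, in the deposited FPKM (fragments per kilobase of transcript, scaled to library size). In WT striatum Dkk3, a divergent Dkk protein not known as a strong Wnt inhibitor, led with 28.1 ± 2.37 FPKM, followed by Fzd3 with 10.0 ± 0.629 FPKM (SD, n = 8 each). Wnt2 came next with 5.83 ± 0.645 FPKM, then Fzd2 with 5.37 ± 0.418 FPKM, Wnt7a with 4.80 ± 0.376 FPKM and Rspo1 with 4.75 ± 0.691 FPKM, neighbours that lie within their spread of each other. Wnt7b had 3.14 ± 0.162 FPKM in WT striatum (SD, n = 8). In WT cortex Dkk3 again led with 107 ± 8.97 FPKM, then Rspo1 with 15.2 ± 2.26 FPKM and Wnt9a with 8.57 ± 0.786 FPKM (SD, n = 8 each). Fzd3 (7.79 ± 0.968 FPKM) lay within the spread of Wnt9a, and Wnt4 (6.25 ± 0.646), Wnt7b (6.05 ± 0.445), Rspo3 (5.93 ± 0.651) and Wnt10a (5.87 ± 0.475 FPKM) formed a group in which neighbours did not differ beyond their SD.

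**Figure D4:**
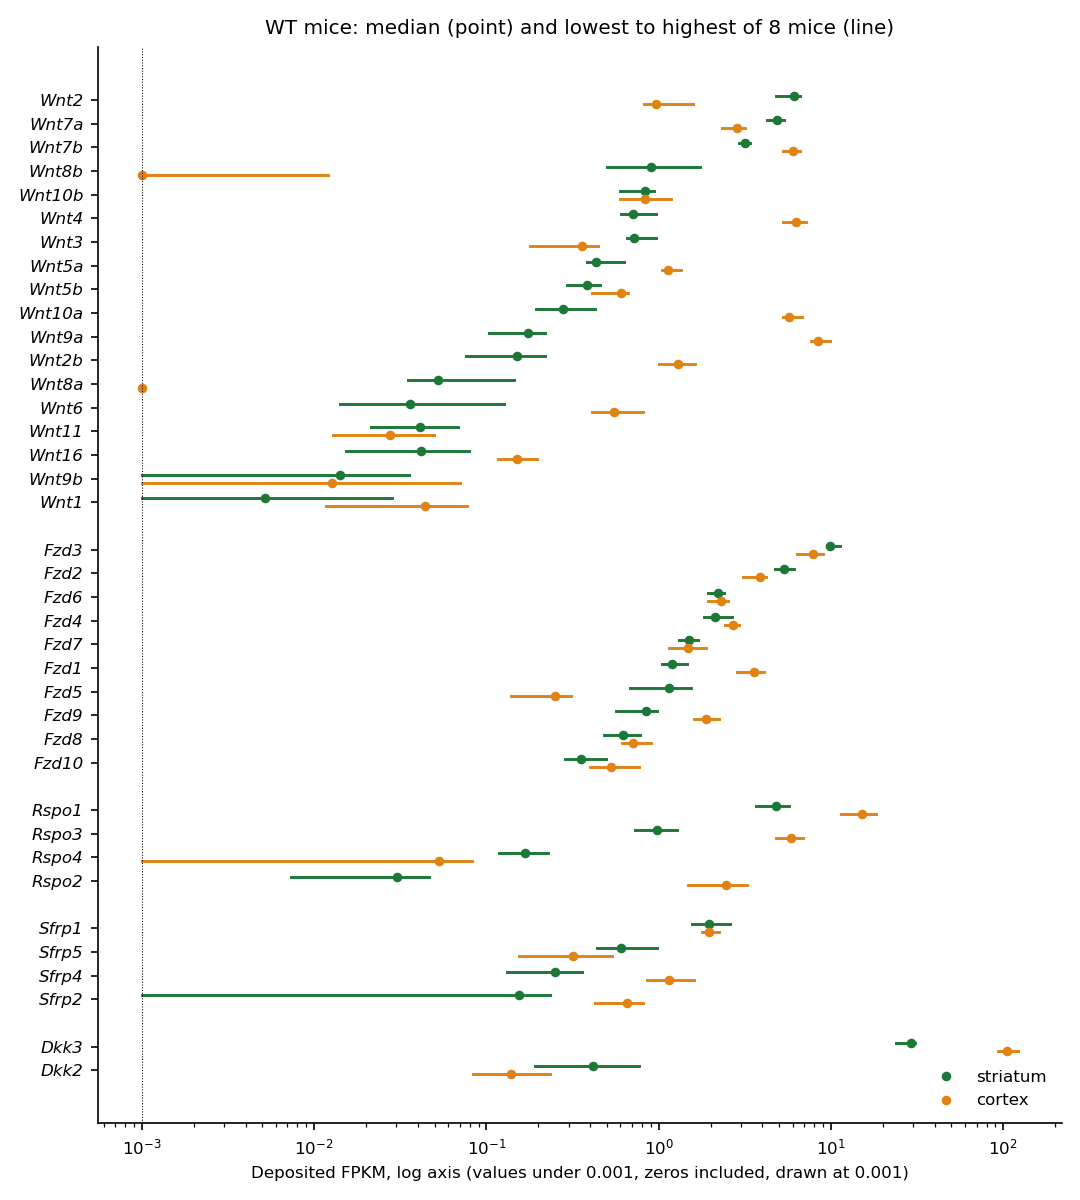
Deposited FPKM of the 38 members in WT mice on a log axis, for striatum and cortex, with the median as a point and the lowest to highest of 8 mice as a line, grouped by role. Dkk3 stands highest in both tissues, Wnt9a, Wnt10a, Wnt4 and Rspo2 lie far to the cortical side, and Wnt8b, Fzd5 and Wnt2 to the striatal side.

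The rest of the pathway was read from a list of 91 genes for receptors, transducers, nuclear factors, targets and polarity proteins, of which 90 could be tested. In Q140 against WT striatum 27 of the 90 changed, 12 higher and 15 lower (30.0%, near the 31.3% of all genes). The 5 lower ones among 9 coreceptors and other receptors were led by Adgra2 (-0.32, SE 0.05), Ptk7 (-0.22, SE 0.05) and Lrp5 (-0.14, SE 0.05), and none of the 9 was higher. Of 14 nuclear factors, Tcf7 (-0.68, SE 0.05, adjusted p = 7.29e-16) and Lef1 (-0.26, SE 0.08), which bind DNA for beta-catenin, were lower and Pygo1 (0.19) was higher. Of 22 cytoplasmic transducers 4 were lower, among them Gsk3b, a kinase of the beta-catenin destruction complex (-0.35, SE 0.03, adjusted p = 2.01e-13), and Frat2 (-0.37, SE 0.09), and 3 were higher. Of 15 canonical target genes, Notum (0.37), which removes the lipid from Wnt ligands, and Rnf43 (0.26), a ligase that removes frizzled receptors, were higher, and the 2 lower ones were again Tcf7 and Lef1. Of 13 planar polarity genes 5 were higher, among them Fuz (0.28) and Prickle2 (0.25), and 2 were lower.

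Of the same 90 genes, 9 changed in Q140 Pms1 null against Q140 striatum, 6 higher and 3 lower (10.0%, against 7.1% of all genes). Gsk3b (0.18, SE 0.03), Kremen1, a Dkk receptor (0.23, SE 0.05), Porcn, which attaches the lipid to Wnt ligands (0.16, SE 0.03), and Tcf7 (0.22) were higher in Q140 Pms1 null striatum, and their values in Q140 against WT striatum were -0.35, -0.13, -0.09 and -0.68, 2 comparisons that share the Q140 animals. Ror1, a receptor for Wnt5a, was higher (0.39, SE 0.10), and Wls, which carries Wnt ligands to the cell surface, was lower (-0.12, SE 0.04). Pms1 null against WT changed 5 of the 90 in striatum (2 higher and 3 lower, 5.56%, against 7.91% of all genes) and 15 in cortex (6 higher and 9 lower, 16.7%, against 9.58% of all genes). In Pms1 null cortex, where 4.26% of all genes were lower, 4 of 15 canonical target genes were lower and 0 higher. They were led by Lef1 (-0.34, SE 0.09), Nkd1 (-0.31, SE 0.05) and Axin2 (-0.16, SE 0.04). Of 10 other inhibitors, Wif1 (-0.61, SE 0.19) and Apcdd1 (-0.24, SE 0.07) were lower, and 3 of 13 planar polarity genes were higher. The pathway genes were read in the main fit only, so their calls were not checked with the late-code term or the random block. All Pms1 null animals carry late codes. In Q140 Pms1 het against Q140 striatum and in Q140 against WT cortex, 0 of the 90 were called.

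Some members share their place in the genome with another gene on the opposite strand. The annotated partner's own reads came to 12.5% of those of Sfrp2, 10.7% of Fzd5 and 5.16% of Wnt7b, and less for Wnt11, Fzd6 and Wnt5a. The library kit marks strand, per the labels, while the strand setting of the counting is not stated, so for these genes a part of the reads could belong to the partner.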

How the data were processed

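RNA-seq of 96 libraries was deposited as read counts per gene and as FPKM, both made by the authors. Per the labels' protocols, RNA was purified on RNeasy columns and made into stranded TruSeq libraries. The submitters' processing notes name STAR 2.7.5c, SAMtools 1.10, HTSeq 0.12.3 and the builds GRCm38 and mm10, without saying which step each served. The annotation release and the strand setting of the counting were not stated there. Genomic positions were read from GENCODE vM21 and RefSeq on GRCm38.

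From the deposited counts, each tissue was fitted on its 48 libraries with edgeR 4.0.16 (R 4.3.3): filterByExpr with a minimum count of 10, TMM scaling, sex as a covariate and the robust quasi-likelihood test, with Benjamini-Hochberg adjustment over all genes tested. Tissue comparisons used all 96 libraries with sex within tissue. The deposited FPKM values were used for levels between genes and, as log2(FPKM + 0.1) and log2(FPKM + 1), for limma 3.58.1. DESeq2 1.42.0, RLE scaling, no scaling, no low-count filter, a late-code term, the first code number as a random block, early codes only, each sex alone and leaving out each animal were the other settings. Marker sums are CPM after TMM scaling.

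The same 48 animals gave both tissues, per the labels. Between the libraries of 1 animal, deviations from the group mean were correlated with a median of 0.115, and 32 of 48 exceeded 0.1. Animals with the same first code number had a correlation of 0.133 in striatum and 0.131 in cortex; the p-values treat animals as independent. No libraries agreed within sampling noise. Values in full are given for members called in a comparison of genotypes within a tissue and for up to 4 with the largest WT tissue difference in each direction, and for up to 3 genes per pathway sublist and direction. Other members named beside them were chosen after their values were seen. The members and the lists of pathway and marker genes were chosen with earlier results of these data known. Test scripts were checked on simulated counts.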

Additional observations from a re-analysis of the deposited data

Results flagged for a closer look

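In 6 of 102 groups of 8 animals, over 15 members, the highest or lowest animal stood far from the rest, and chance alone gives about 1 in 20. Wnt8b in Q140 striatum had 1.92 CPM in the animal coded 8-2, against 1.03 CPM in the next, and Wnt4 in the same library had 1.86 CPM, against 1.35 CPM. That library also had the highest summed meningeal fibroblast markers of its group (44.1 CPM, against 15.4 to 22.8 CPM in the others) and the highest endothelial and mural sum (390.2 CPM, against 332.0 to 364.6 CPM). The same library was the lowest of its group in the choroid plexus, astrocyte, oligodendrocyte and microglia sums. Wnt7a in Q140 Pms1 null striatum had 18.1 CPM in the animal coded 43-5, against 13.7 CPM in the next, and this library had the highest summed medium spiny neuron markers of its group (11238 CPM), the highest cortical glutamatergic sum (154.5 CPM, against 122.1 to 135.9 CPM in the others) and the highest thalamic sum (77.1 CPM, against 59.7 to 68.9 CPM). The 43-5 library also had the highest endothelial and mural sum, and the lowest septal sum and the lowest dentate and hippocampal sum. Fzd9 in Q140 Pms1 null striatum reached 2.46 CPM in the animal coded 18-1, against 1.90 CPM in the next, in the library with the lowest medium spiny neuron sum of its group (9350 CPM). The oligodendrocyte and microglia sums of the 18-1 library were the lowest too. Wnt3 in Pms1 null striatum reached 4.98 CPM in the animal coded 22-1, against 3.36 CPM in the next, in the library with the highest septal (175.6 CPM, against 152.3 to 165.1 CPM), meningeal, endothelial and astrocyte sums of its group and the lowest cortical glutamatergic sum (123.1 CPM, against 129.0 to 152.9 CPM). The ependymal sum of the 22-1 library was the lowest as well. Wnt10a in Pms1 null cortex was 9.74 CPM in the animal coded 43-3, against 12.1 CPM in the next one up, in the library with the highest astrocyte (1947.5 CPM, against 1748.5 to 1903.7 CPM), oligodendrocyte and oligodendrocyte precursor sums of its group. Each of these libraries was thus the highest or lowest of its group in several marker lists. With this many lists and 8 animals per group, any library is expected to be so in some of them. The limits given above for the region lists in striatum hold here too, and the part of the markers in the 6 values was not tested.

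The effect of Q140 differed between groups, by a test of the difference itself, for 4 genes. Between Pms1 null and Pms1 wild-type mice the striatal effect differed by 1.44 on the log2 scale for Wnt8b and by 0.96 for Dkk2. Between striatum and cortex it differed by -1.33 for Wnt4, -1.31 for Dkk2 and -0.67 for Rspo1.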

How the results depend on the processing

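Wnt8b, Wnt4, Dkk2 and Rspo1 stayed lower in Q140 than in WT striatum under every setting run, with adjusted p up to 0.0336, 0.000174, 0.0095 and 0.00147 in that order, and no direction reversed. The count of members called in Q140 against WT striatum ran between 5 and 8 with 1 animal left out, and in Q140 Pms1 null against Q140 striatum between 0 and 3. In Q140 Pms1 null against Q140 striatum the count was 0 with the late-code term, 1 with limma on log2(FPKM + 1), 1 with the first code number as a random block, 1 in females only and 0 in males only. In Pms1 null against WT striatum 1 member was called with the late-code term and 3 with the random block, and in cortex 0 with the late-code term. In Q140 Pms1 null against WT striatum 4 were called without the low-count filter and 4 with the late-code term. In the same comparison in cortex 2 were called with RLE scaling, 0 with the late-code term and 3 with DESeq2. The Pms1 null interaction gave 1 call without the low-count filter and 1 with the random block. With the animal as a replicate block the tissue difference of the Q140 effect gave 5 calls, and the 30 calls between WT tissues did not change. The random block also ended the calls of Wnt3 (adjusted p = 0.0602) and Dkk2 (0.0573) in Q140 Pms1 het against Pms1 het striatum, of Rspo3 (0.0968) and Fzd4 (0.0634) in Q140 Pms1 null against Pms1 null striatum, and of Rspo3 (0.0685) in Q140 Pms1 null against WT striatum. Where a call was lost the cause was not tested. Without scaling of the libraries the split was 2 higher and 5 lower in Q140 against WT striatum. It was 1 higher and 4 lower in Q140 Pms1 null against WT striatum. In both comparisons Fzd1 was also called higher with limma on log2(FPKM + 0.1) and on log2(FPKM + 1). Depth limits the low members: 5 were not tested in striatum and 5 not in cortex.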
